A study of Mus musculus with 2 samples.

Results

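Cycling chondrocytes of the mouse knee were chosen by their own transcripts, and 265 of the 22438 barcodes of 2 single-cell libraries met the rule. A barcode was taken when it had at least 500 genes and at most 10% of its unique molecular identifiers (UMIs, each standing for 1 captured RNA molecule) from mitochondrial genes. It also needed at least 5000 CPM (a gene's UMIs scaled to a cell total of 1000000) of the type II collagen gene Col2a1, at least 2 UMIs of Mki67 and Top2a together, and less than 2% of UMIs from the haemoglobin genes Hbb-bs, Hbb-bt, Hba-a1 and Hba-a2. The sham library gave 175 such cells and the library from mice with destabilisation of the medial meniscus (DMM) gave 90. Cells that met every other condition but held no UMI of Mki67 or Top2a, 1790 in sham and 1530 in DMM, are called non-cycling chondrocytes here. The groups were wild-type mice after sham surgery and wild-type mice after DMM surgery, a standard mouse model of osteoarthritis, with 1 library each that pooled cells of 3 mice. Both libraries held live knee cartilage cells (Calcein AM positive, DAPI negative) sorted as lacking CD45, Ter119 and CD31, which mark blood and endothelial cells, and the labels call them superficial cells. Age, sex and time after surgery are not given in the sources used here.

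Chondrocytes build and keep cartilage, and in the adult joint most of them rest outside the cell cycle. A cell that enters the cycle copies its DNA in S phase with genes under E2F control, then condenses and separates its chromosomes in mitosis with genes under control of the MuvB complex with B-MYB and FOXM1. In growing cartilage, columns of dividing chondrocytes precede hypertrophic ones, which leave the cycle, enlarge and mineralise their matrix. Mki67 encodes the Ki-67 protein that coats mitotic chromosomes, and Top2a encodes the topoisomerase that untangles sister DNA, and both are made mostly from S phase to mitosis.

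Cycle genes were assigned by list, not by grouping in these cells, to an S phase set and a mitotic set, beside other lists. The promoters of these sets differ in their letters, and 4 promoters are shown, 2 from each set. They are the windows of 250 bases before the RefSeq start (GRCm38.p6) of the mitotic genes with the highest level in cycling chondrocytes among those with both CHR and CCAAT letters, and of the S phase genes with the highest level among those with E2F-like letters. Each is written 5′ to 3′ on the gene's strand, and genes with more than 1 window were left out. Ube2c encodes the ubiquitin-conjugating enzyme of the anaphase-promoting complex (chr2:164769679-164769928, plus strand), and Cks1b a small partner of the cyclin-dependent kinases (chr3:89418292-89418541, minus strand). In these 2 windows the capitals mark CHR letters (TTTGAA or TTCGAA) and CCAAT letters on either strand, so TTCAAA and ATTGG are the same motifs read from the other strand.
Ube2c: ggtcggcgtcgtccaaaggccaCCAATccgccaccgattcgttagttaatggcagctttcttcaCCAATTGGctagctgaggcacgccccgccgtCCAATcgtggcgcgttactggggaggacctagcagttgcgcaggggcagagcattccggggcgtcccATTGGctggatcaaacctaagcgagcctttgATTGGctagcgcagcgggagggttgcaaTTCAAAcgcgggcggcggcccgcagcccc
Cks1b: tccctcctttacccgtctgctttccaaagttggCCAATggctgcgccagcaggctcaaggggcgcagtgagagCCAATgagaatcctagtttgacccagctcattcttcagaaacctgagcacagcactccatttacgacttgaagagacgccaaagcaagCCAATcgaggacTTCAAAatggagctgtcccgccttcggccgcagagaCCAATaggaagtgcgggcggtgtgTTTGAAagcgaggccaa
Rrm2 and Rrm1 encode the small and the large subunit of ribonucleotide reductase, which makes the building blocks of DNA (chr12:24708004-24708253 and chr7:102441445-102441694, both plus strand). In their windows the capitals mark only E2F-like letters (TTGGCGC or TTCCCGC or TTCGCGC or TTGCCGC, either strand), and CCAAT letters stay in lower case.
Rrm2: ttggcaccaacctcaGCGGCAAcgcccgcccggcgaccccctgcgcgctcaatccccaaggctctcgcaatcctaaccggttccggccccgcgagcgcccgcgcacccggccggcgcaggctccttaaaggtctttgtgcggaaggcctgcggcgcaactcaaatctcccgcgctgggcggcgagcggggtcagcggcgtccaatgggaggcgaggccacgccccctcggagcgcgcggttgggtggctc
Rrm1: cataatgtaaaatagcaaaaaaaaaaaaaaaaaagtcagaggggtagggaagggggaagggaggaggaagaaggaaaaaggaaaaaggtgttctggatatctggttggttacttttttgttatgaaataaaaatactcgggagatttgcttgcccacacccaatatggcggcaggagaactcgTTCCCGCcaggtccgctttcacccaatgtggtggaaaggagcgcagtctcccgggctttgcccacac
Ube2c held 1 CHR, which began 29 bases before the start, and 6 CCAAT matches, of which a pair overlapped. Cks1b held 2 CHR, 77 and 17 bases before the start, and 4 CCAAT matches. The E2F-like letters began 235 bases before the start in Rrm2 and 67 in Rrm1.

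Across the lists, CHR letters were common before mitotic genes and E2F-like letters before S phase genes. Windows from 250 bases before to 50 bases after a start were found for 64 of 76 mitotic genes (the mitotic lists below with Mki67 and Top2a) and for 31 of 40 S phase genes. CHR letters stood in 44 of the 64 mitotic genes (68.8%) and in 4 of the 31 S phase genes (12.9%), against 21.7% of the 27025 genes of the table. E2F-like letters stood in 17 mitotic genes (26.6%), in 23 S phase genes (74.2%) and in 10.9% of all genes. CCAAT letters stood in 70.3% of mitotic and 64.5% of S phase genes and in 41.1% of all genes, and both CHR and CCAAT in 54.7% of mitotic genes against 9.65% of all genes. For 14 of the 17 cartilage matrix genes with a window, the shares were 21.4% for CHR, 50% for CCAAT and 14.3% for E2F-like letters. Mitotic genes with CHR letters had a median log2 ratio of cycling over non-cycling chondrocytes of 5.68 in sham and 5.63 in DMM (36 genes), and those without had 4.81 and 4.80 (19 genes). A match of letters is a description of the sequence and shows no binding.

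**Figure D1:**
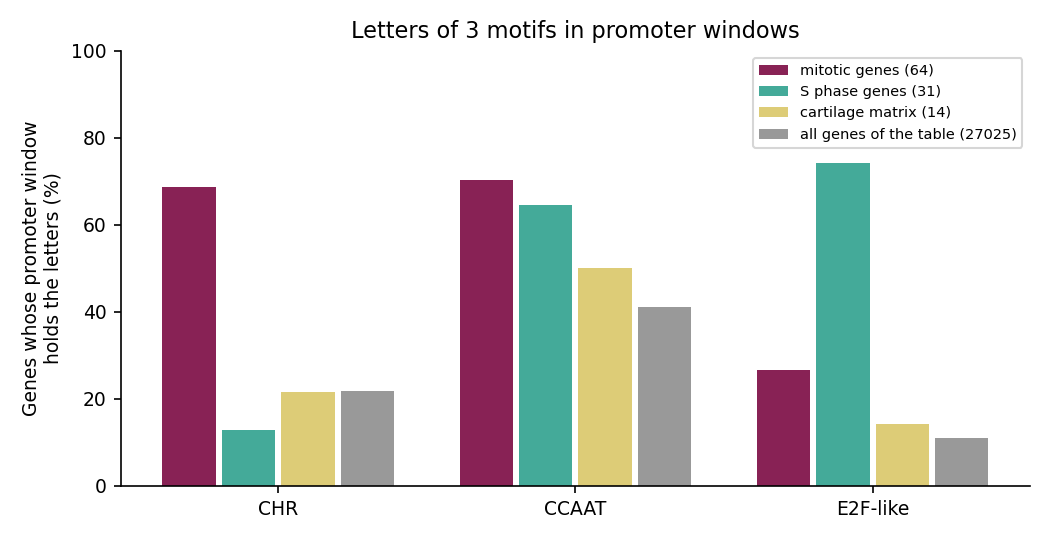
Share of genes (vertical axis, percent) whose promoter window holds CHR, CCAAT or E2F-like letters, for 64 mitotic, 31 S phase and 14 cartilage matrix genes and for all 27025 genes of the RefSeq table. The mitotic bar is highest for CHR (68.8% against 21.7% of all genes) and the S phase bar for E2F-like letters (74.2% against 10.9%).

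The libraries were deep enough to follow single cycle genes in these cells, but each group had 1 library, so no difference between sham and DMM has a replicate check and no p-value was computed. Cycling chondrocytes had a median of 20796 UMIs and 4892 genes in sham and 18247.5 UMIs and 4446.5 genes in DMM, and non-cycling chondrocytes 14752.5 UMIs and 3676 genes in sham and 13341 and 3314 in DMM. The UMIs of the cycling chondrocytes summed to 3999582 in sham and 1734223 in DMM, and levels below are CPM of such sums over a set of cells unless given per cell. Intervals are exact 95% intervals that cover counting error only, not variation between cells, mice or preparations. The libraries shared 24 barcodes, of which 1 was a cycling chondrocyte, in sham.

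Other cell types left traces in part of these cells. The sort should have removed Ter119-positive cells, yet 1280 sham and 757 DMM barcodes were cycling cells with at least 2% globin UMIs, here called cycling erythroid cells. The 9 erythroid markers outside the globins summed to 713 CPM in cycling chondrocytes of sham and 353 CPM in DMM, against 71.0 and 57.5 CPM in non-cycling ones, and 23 sham and 5 DMM cells exceeded 1000 CPM. The fibroblast list summed to 3473 and 1761 CPM, with 1 sham cell at 96118 CPM, and the osteoblast list to 1638 and 751 CPM. The neutrophil list summed to 75.5 CPM in sham and 522 CPM in DMM, where 1 cell held 33348 CPM, with Ltf and Ngp at 0. Macrophage markers summed to 14.0 and 13.8 CPM, with C1qa, C1qb and Adgre1 at 0 in both libraries. Limits set after seeing the data on globins, on the fibroblast, osteoblast and neutrophil lists and on the mural genes Acta2, Myh11 and Rgs5 left 113 sham and 63 DMM cells, here called cells without markers of other types. Scrublet, a caller of doublets (barcodes of more than 1 cell), marked 38 of the 175 sham and 8 of the 90 DMM cycling chondrocytes, which were kept. Over all cells within the gene and mitochondrial limits it marked 463 of 9992 in sham (4.63%) and 360 of 9889 in DMM (3.64%). Among non-cycling chondrocytes it marked 105 of 1790 and 90 of 1530, so the share was largest in the cycling chondrocytes of sham. The part of doublets in the results was not tested beyond the values with such cells left out.

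The genes of the rule describe the choice and are no finding. Mki67 and Top2a together had a median of 15 UMIs per cell in sham and 8 in DMM, with highest values of 107 and 43. Mki67 stood at 388 CPM of the summed UMIs in sham (interval 368 to 407) and 242 CPM in DMM (219 to 266), and Top2a at 554 and 393 CPM. Col2a1 had a median of 21562.5 CPM per cell in sham (5244 to 60217.5) and 20103.6 CPM in DMM (5352.36 to 50645.2). Near the limits, 28 sham and 20 DMM cells held exactly 2 UMIs of Mki67 and Top2a, and 210 and 137 cells just outside held 1. The S phase and mitotic sets described below, without these genes, summed to a median of 1595 CPM in sham and 1084 CPM in DMM in cells with 2 UMIs. They reached 902 and 914 CPM in cells with 1 UMI, 875 and 858 CPM in cells with none, and 11516 and 12457 CPM in cells with at least 10. Cells that just passed the limit in DMM thus carried levels of those sets near those of cells outside it. Col2a1 lay between 4000 and 5000 CPM in 3 sham and 5 DMM cells outside the rule and between 5000 and 6000 CPM in 4 and 1 cells inside it. Globins made up 2 to 4% in 9 and 2 otherwise fitting cells outside and 1 to 2% in 8 and 3 inside.

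The markers named with these cells, apart from those of the rule, matched the label of a cycling chondrocyte. Cenpf, a kinetochore protein of mitosis, had a UMI in 66.3% of sham and 67.8% of DMM cycling chondrocytes, against 1.51% and 2.16% of non-cycling ones. With each cell thinned to 5000 UMIs these shares were 47.1% and 34.4% against 0.521% and 0.883%, with 5 sham and 0 DMM cycling chondrocytes too shallow for this. Stmn1, a regulator of microtubules, had a UMI in 79.4% and 71.1% of cells against 6.82% and 8.69%. The cartilage proteoglycan gene Acan had a UMI in 174 of 175 sham and 90 of 90 DMM cells, and Sox9, the chondrocyte transcription factor, in 175 of 175 and 90 of 90. Erythroid cells, which do not make these cartilage genes, give the background of such shares: Acan had a UMI in 19.9% of sham and 18.1% of DMM erythroid cells and Sox9 in 20.3% and 14.8%. Superficial zone markers were low in the median cycling cell, with Prg4 at 54.2 CPM in sham and 120 CPM in DMM. The 6 other markers of that list together had medians of 78.3 and 98.1 CPM per cell, against 87.0 and 99.7 CPM in non-cycling cells. A low median was thus not particular to cycling cells. Summed over cells these 6 stood at 664 and 528 CPM against 1084 and 1375 CPM. Levels differed by gene, and Casr, a calcium-sensing receptor of that list, had 2 and 1 UMIs in all.

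Cycle genes were among the genes that stood highest in cycling over non-cycling chondrocytes. Since the rule chose the cells on this contrast, it is given as a description. Of 11646 genes with at least 50 UMIs over both sets in each library, 730 were over 2-fold higher in both libraries (6.27%) and 98 over 2-fold lower (0.841%). Of 146 such genes in the cycle lists 126 were higher and 0 lower, with median log2 ratios of 3.77 in sham and 3.72 in DMM, beside 0.18 and 0.11 over all genes. The other genes past the fold lie outside these lists and were not assigned to a function. For the 15 highest genes named by the rule, log2 ratios without cells with markers of other types ran from 5.92 to 8.36 in sham.

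The S phase genes were higher in nearly every case. Of the genes that license and copy origins 21 of 21 were over 2-fold higher in both libraries, of the genes of nucleotide supply 6 of 6, and of the genes of S phase repair and checkpoint 8 of 9. Mcm5, a subunit of the replicative helicase, stood at 31.3 CPM in sham and 27.7 CPM in DMM against 1.27 and 1.46 CPM in non-cycling cells. Rrm2, whose promoter is shown above, stood at 148 and 123 CPM against 2.21 and 3.43 CPM. Pclaf, a partner of the replication clamp, reached 155 and 185 CPM against 1.09 and 0.939 CPM. Gmnn, which blocks a further round of origin licensing after S phase, stood at 65.5 and 66.9 CPM against 2.75 and 3.66 CPM. Levels of the helicase genes were low in absolute terms, and Mcm5 had a UMI in 62 of 175 sham and 28 of 90 DMM cells.

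Histone and chromatin genes followed, with 12 of 13 over 2-fold higher. Hist1h3c, a replication-dependent histone gene, stood at 120 CPM in sham and 82.5 CPM in DMM against 0.761 and 0.657 CPM. H2afz, a histone variant with a polyadenylated transcript, was the most abundant of the list at 1964 and 2560 CPM against 218 and 276 CPM. Hmgb2, which bends DNA, stood at 910 and 786 CPM against 88.0 and 80.8 CPM. Transcripts of replication-dependent histones mostly lack the poly(A) tail that this assay primes on, so their levels are not compared with those of other genes.

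The mitotic genes held the largest ratios. The lists gave 8 of 9 mitotic cyclins and entry genes over 2-fold higher, 8 of 8 mitotic kinases and checkpoint genes, 14 of 15 centromere and kinetochore genes, 20 of 20 spindle and cytokinesis genes and 10 of 10 condensin and cohesin genes. Pbk, a mitotic kinase, had the largest smaller ratio of both libraries: 99.8 CPM in sham and 126 CPM in DMM against 0.362 and 0.470 CPM, or 275-fold (148 to 578) and 268-fold (143 to 566). In cells without markers of other types its log2 ratios were 8.36 and 7.55. Hmmr, a spindle protein, stood at 102 and 70.3 CPM against 0.616 and 0.0939 CPM, the last from 2 UMIs. Stmn1 stood at 889 and 1313 CPM against 6.34 and 7.94 CPM, 140-fold and 165-fold.

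Genes of later steps showed the same separation. Cdk1, the kinase that starts mitosis, stood at 160 CPM in sham and 167 CPM in DMM against 1.56 and 1.78 CPM, and its partner Ccna2 at 122 and 101 CPM against 0.761 and 0.845 CPM. Birc5, the survivin gene of the chromosomal passenger complex, stood at 244 and 316 CPM against 2.50 and 2.35 CPM. Ube2c reached 249 and 264 CPM against 1.92 and 1.88 CPM, 129-fold and 140-fold. Cdca3, Esco2, Depdc1a, Cdca8, Knstrn and Hist1h2ae made up the rest of the 15 highest, with sham ratios from 92.0-fold to 166-fold. Of the anaphase-promoting complex only 4 of 6 genes were over 2-fold higher, and Pttg1, the securin gene, stood at 42.5 and 54.2 CPM against 57.6 and 73.5 CPM.

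**Figure D2:**
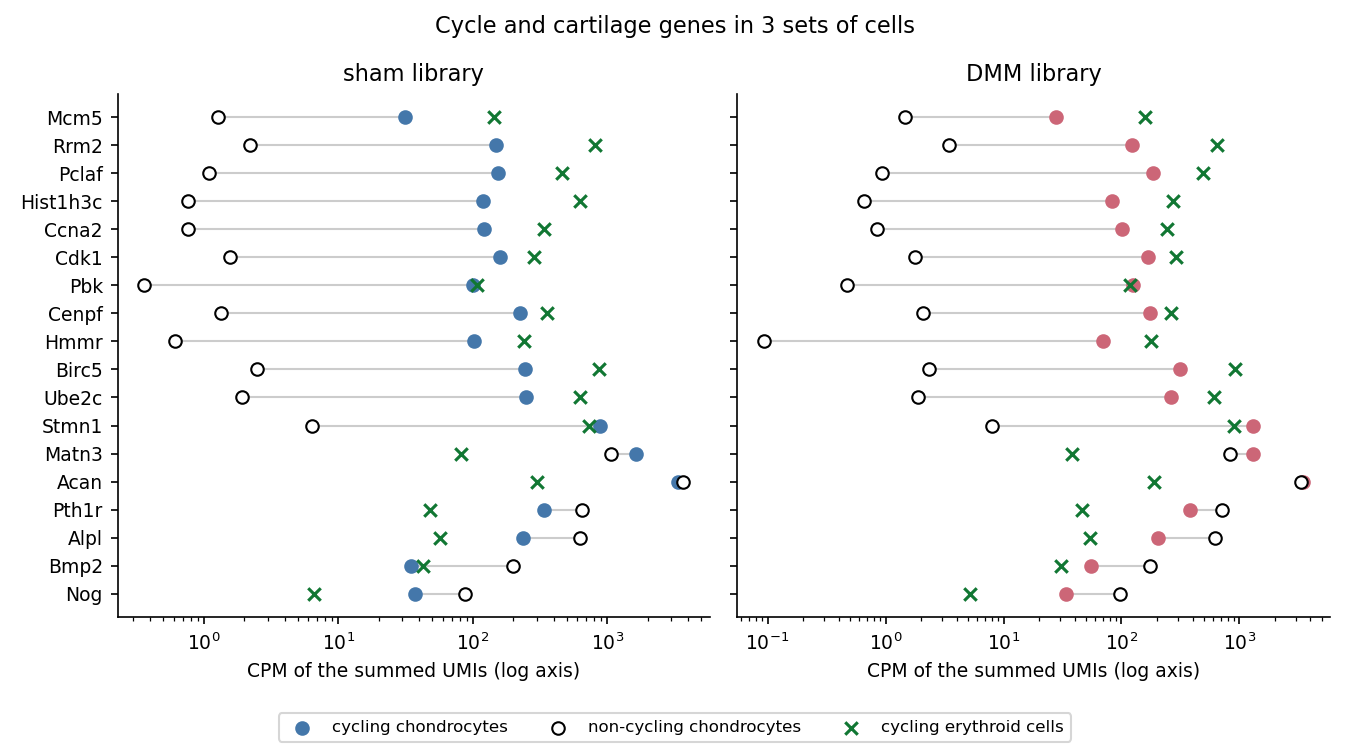
Level of 12 cycle genes and 6 cartilage genes (horizontal log axis, CPM of the summed UMIs) in cycling chondrocytes, non-cycling chondrocytes and cycling erythroid cells of the sham library (left) and the DMM library (right). Cycle genes of the non-cycling cells lie far to the left (Pbk at 0.362 and 0.470 CPM), while Acan, at 3379 and 3444 CPM in cycling cells, nearly coincides with its level in non-cycling ones.

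The regulators above these genes differed by list. Of the E2F and MYB-FOXM1 regulators 10 of 11 were over 2-fold higher in both libraries, and of the G1 cyclins and kinases 3 of 8, beside 6.27% of all genes. Median log2 ratios of the G1 list were 0.74 in sham and 0.82 in DMM, beside 0.18 and 0.11 over all genes. Those of the E2F and MYB-FOXM1 list were 2.68 and 2.40. Foxm1, the transcription factor of late cycle genes, stood at 24.5 CPM in sham and 30.6 CPM in DMM against 0.399 and 0.282 CPM. Ccnd1, the cyclin D1 gene that passes growth signals to the cycle, stood at 161 and 140 CPM against 147 and 127 CPM, ratios of 1.10 and 1.10. Its partner Cdk6 stood at 602 and 526 CPM against 565 and 407 CPM. Cyclin D1 and Cdk6 transcripts were thus about as abundant in non-cycling chondrocytes.

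Transcripts of cycle inhibitors were present in cycling cells. Of 10 CDK inhibitors and antiproliferative genes 2 were over 2-fold higher, Cdkn2a and Cdkn2c, and 0 over 2-fold lower in both, with medians of -0.15 and 0.06. Cdkn2a, which encodes the p16 and p19 ARF inhibitors, stood at 40.3 CPM in sham and 46.7 CPM in DMM against 13.5 and 11.6 CPM, 2.99-fold and 4.04-fold. Its UMIs came from 68 of 175 and 39 of 90 cells, the highest cell giving 8.70% and 6.17% of them. Cdkn1a, the p21 gene, stood at 644 and 958 CPM against 650 and 753 CPM and had a UMI in 164 of 175 sham and 85 of 90 DMM cells. Cdkn1c, the p57 gene, was lower at 105 and 146 CPM against 209 and 218 CPM, 0.50-fold and 0.67-fold. Of 10 p53 targets 0 were past the fold in both libraries, with medians of 0.02 and -0.27. Over all genes 6.27% were higher and 0.841% lower, shares at which few of 10 genes would pass.

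The balance of S phase and mitotic transcripts varied between the cycling cells. The S phase set held 40 genes and the mitotic set 74, with Mki67 and Top2a in neither, so their sums are not on one scale and only their balance between cells is compared. Non-cycling chondrocytes, too, held more of the mitotic set, with medians of 540 against 309 CPM of the S phase set in sham and 543 against 274 CPM in DMM. Mitotic UMIs made up 73.4% of both sets together in sham (72.9 to 73.8) and 75.5% in DMM (74.8 to 76.2). Without cells with markers of other types the order turned, with 77.9% in sham (77.3 to 78.4) and 76.2% in DMM (75.4 to 77.0). The same share, with no cells left out, was 61.7% and 59.4% in cycling erythroid cells and 55.2% and 55.7% in the other cycling cells. Per cell the S phase level ran from 0 to 7196 CPM in sham (median 1697) and from 0 to 6096 CPM in DMM (median 1536). The mitotic level ran from 345 to 29587 CPM (median 5496) and from 164 to 22697 CPM (median 5139).

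Cells were chosen on Mki67 and Top2a, genes of the later cycle, and the sets differ in size, so the counts of cells by balance describe these sets only. In 19 of 175 sham and 7 of 90 DMM cells S phase UMIs exceeded mitotic ones, and in 54 and 27 cells mitotic UMIs were at least 4 times the S phase ones. From the band under 50% mitotic to that of 50 to 80% and that of 80% or more, Cenpf ran from 23.4 to 101 to 527 CPM in sham and from 7.39 to 108 to 370 CPM in DMM. Cdc20, the activator of the anaphase-promoting complex, ran from 18.2 to 40.3 to 144 CPM and from 14.8 to 48.1 to 253 CPM. Mcm5 ran the other way, from 57.3 to 38.6 to 8.93 CPM and from 36.9 to 34.5 to 10.1 CPM. These genes belong to the sets that defined the bands, so their order is built in. Acan, which does not, stood at 3105, 3149 and 3909 CPM in sham and at 3974, 3369 and 3467 CPM in DMM. Cells outside the rule with such levels were few: 3 of 1790 sham and 10 of 1530 DMM non-cycling cells reached the cycling cells' median of S phase genes, and 1 and 0 that of mitotic genes.

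**Figure D3:**
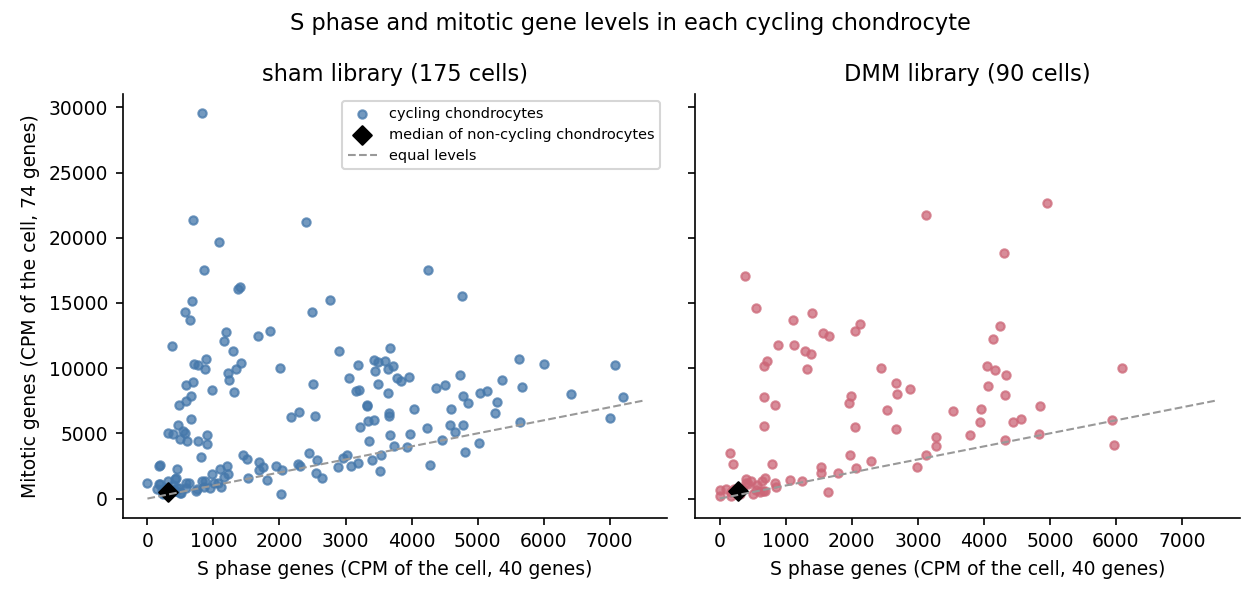
Level of the 40 S phase genes (horizontal axis) against the 74 mitotic genes (vertical axis), both in CPM of the cell, for each of 175 sham (left) and 90 DMM (right) cycling chondrocytes. Most points lie above the dashed line of equal levels, with 19 sham and 7 DMM cells holding more S phase than mitotic UMIs, and a cluster near the diamond, the median of non-cycling chondrocytes.

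Cartilage matrix genes, taken as a list, stood at nearly the same level in cycling and non-cycling chondrocytes. Both sets had passed the same Col2a1 limit, so some likeness in such genes is built in. Of 17 cartilage matrix genes 0 were past 2-fold in both libraries in either direction, with median log2 ratios of -0.12 and -0.05. Over all genes 6.27% were higher and 0.841% lower, shares at which few of 17 genes would pass. Acan stood at 3379 CPM in sham and 3444 CPM in DMM against 3653 and 3322 CPM, and Sox9 at 1754 and 1702 CPM against 2126 and 2038 CPM. Hapln1, which links the proteoglycan to hyaluronan, stood at 3675 and 3381 CPM against 4520 and 3770 CPM. The list still held moderate differences in both directions. Matn3, a matrilin of growing cartilage chosen here after its values were seen, stood at 1640 and 1308 CPM against 1060 and 830 CPM, 1.55-fold and 1.58-fold. Chad, the chondroadherin gene, stood at 2828 and 3026 CPM against 4561 and 4454 CPM.

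Of 11 genes of hypertrophy and mineralisation 3 were over 2-fold lower in cycling cells in both libraries (Alpl, Ihh and Ibsp) and 0 higher, with median log2 ratios of -0.84 and -0.83. Over all genes 0.841% were lower and 6.27% higher. The superficial zone list also had 3 of 14 genes lower and 0 higher, with medians of -0.50 in sham and -1.08 in DMM. Alpl, the alkaline phosphatase of mineralising matrix, stood at 237 CPM in sham and 205 CPM in DMM against 626 and 615 CPM, 2.64-fold and 3.00-fold lower. Ihh, the hedgehog ligand of prehypertrophic cells, stood at 14.3 and 19.0 CPM against 63.3 and 42.9 CPM. Its UMIs came from 10 of 175 sham and 3 of 90 DMM cells (5.71% and 3.33%), against 12.0% and 11.0% of non-cycling cells and 0.703% and 0.793% of erythroid cells, and 1 cell gave 75.4% and 48.5% of them. Ibsp, a bone sialoprotein, stood at 994 and 667 CPM against 2159 and 2775 CPM, and 1 cell gave 42.5% and 82.8% of its UMIs. Col10a1, the collagen of hypertrophic cartilage, likewise owed 82.0% and 96.9% of its UMIs to 1 cell, at 302 and 223 CPM against 540 and 318 CPM. Panx3 and Mef2c, chosen after their values were seen, rested on more cells, with Panx3 at 163 and 138 CPM against 300 and 245 CPM.

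The share of cells with these transcripts was also compared. Cells with over 1000 CPM of 5 hypertrophic markers (Ihh, Panx3, Col10a1, Ibsp and Nrgn), a limit set after the data were seen, made up 20 of 175 cycling cells in sham (11.4%, 7.12 to 17.1) and 24.1% of non-cycling ones, a ratio of 0.475 (0.287 to 0.742). In DMM they made up 5 of 90 (5.56%, 1.83 to 12.5) against 26.3%, a ratio of 0.211 (0.0683 to 0.498). Without markers of other types, which include osteoblast genes, 6 of 113 sham cells (5.31%) and 0 of 63 DMM cells passed, against 15.5% and 11.9%, and 0 of 63 allows a share of up to 5.69%. The 6 superficial markers other than Prg4 passed in 9.71% against 14.97% in sham and 7.78% against 17.8% in DMM, ratios of 0.649 (0.372 to 1.06) and 0.438 (0.174 to 0.914). Without markers of other types they passed in 0 of 113 and 0 of 63 cycling cells against 2.99% and 0.705%, so few cells that the sets could not be told apart at this depth. The osteoblast list passed in 14.9% against 25.7% in sham, a ratio of 0.578 (0.374 to 0.858), and in 22.2% against 32.5% in DMM, a ratio of 0.684 (0.414 to 1.07). Without markers of other types its ratios were 0.458 (0.181 to 0.967) and 0.510 (0.184 to 1.13), but cells were left out there by this same list. The fibroblast list passed in 26.3% against 32.2% in sham and in 22.2% against 40.5% in DMM. The osteoblast and fibroblast shares thus had the direction of the hypertrophic ones.

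**Figure D4:**
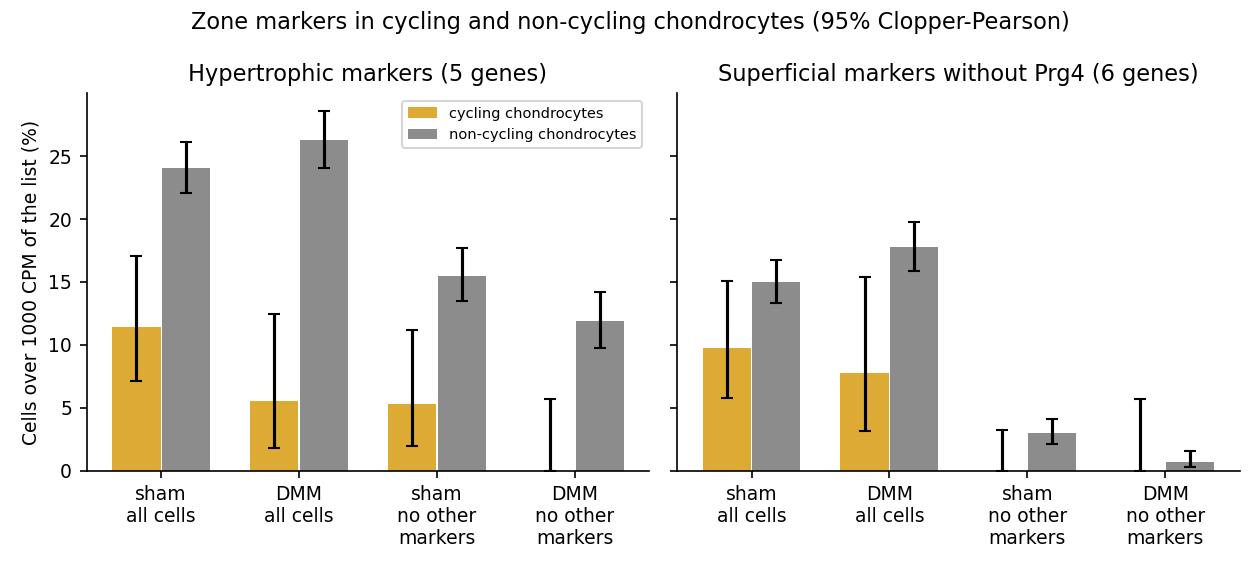
Share of cells (vertical axis, percent, with 95% Clopper-Pearson intervals) over 1000 CPM of the hypertrophic markers (left) and the superficial markers without Prg4 (right), for cycling and non-cycling chondrocytes of each library, with all cells and without those with markers of other cell types. The hypertrophic share of cycling cells is the smaller in each pair (11.4% against 24.1% in sham and 5.56% against 26.3% in DMM).

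The signals that pace growth cartilage differed by gene. Pth1r, the receptor that holds chondrocytes before hypertrophy, stood at 338 CPM in sham and 382 CPM in DMM against 650 and 708 CPM, 1.93-fold and 1.85-fold lower, and was found in 163 of 175 and 81 of 90 cells. Fgfr3, a receptor that restrains chondrocyte growth, stood at 123 and 104 CPM against 150 and 138 CPM. Of 17 TGF-beta and BMP genes 4 were over 2-fold lower and 0 higher in both libraries, beside 0.841% lower and 6.27% higher over all genes. Bmp2, a ligand of chondrocyte maturation, stood at 35.0 and 55.4 CPM against 200 and 174 CPM, 5.71-fold and 3.14-fold lower. Erythroid cells held 42.6 and 30.8 CPM of Bmp2, above the level of cycling chondrocytes in sham and below it in DMM. Nog, which blocks BMP ligands, stood at 37.0 and 34.0 CPM against 86.8 and 97.9 CPM, with 6.59 and 5.19 CPM in erythroid cells. Bmp6 stood at 129 and 51.9 CPM against 290 and 204 CPM.

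Other genes among the 10 lowest included Frzb, a secreted Wnt antagonist, at 16.8 CPM in sham and 14.99 CPM in DMM against 56.0 and 62.9 CPM, and Crispld1 at 629 and 488 CPM against 1513 and 1167 CPM. Prg4, the lubricin gene of the joint surface, stood at 1472 and 1531 CPM against 3380 and 5530 CPM, but 1 cell gave 24.9% and 20.6% of its UMIs. Its log2 ratio without cells with markers of other types was -2.61 in sham and -0.19 in DMM. A Prg4 UMI was found in 74.3% and 86.7% of cycling cells and in 63.8% and 75.6% of erythroid cells, and the part of free RNA in these shares was not tested. Of 12 genes of the IGF and FGF list, 12 of the EGF family and immediate early response, 10 of YAP and mechanosensing and 12 of dissociation stress, 0 were past 2-fold in both libraries in either direction. At the shares over all genes, 6.27% higher and 0.841% lower, few genes of lists this small would pass. Fos, an immediate early gene, stood at 1142 and 1323 CPM against 1267 and 1418 CPM.

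Fewer chondrocytes of the DMM library were in the cycle. They made up 175 of 2175 cells with the Col2a1 level of the rule in sham (8.05%, 6.94 to 9.27) and 90 of 1757 in DMM (5.12%, 4.14 to 6.26), a ratio of 0.637 (0.488 to 0.826). With each cell thinned to 5000 UMIs the shares were 5.71% (120 of 2102) and 3.54% (60 of 1697), a ratio of 0.619 (0.447 to 0.851), with 73 sham and 60 DMM cells left out as shallower. Without Scrublet doublets the ratio was 0.731 (0.549 to 0.968), and without cells with markers of other types it was 0.789 (0.570 to 1.08), an interval that includes 1. The share was also lower in the cells below the Col2a1 limit (8.63% against 4.56%) and higher in erythroid cells (85.8% against 90.6%). With 1 library per group, surgery and preparation cannot be told apart.

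The share also differed with the level of Prg4, which the rule did not use. Of cells with at least 5000 CPM of Prg4, 11 of 247 (4.45%) cycled in sham and 7 of 249 (2.81%) in DMM, against 8.51% and 5.50% of cells below. The ratios were 0.524 (0.256 to 0.962) and 0.511 (0.199 to 1.10), with 60 and 54 cells between 2500 and 10000 CPM. The median depth was 11544 against 15441.5 UMIs in sham and 13334 against 13532 UMIs in DMM. Thinned to 5000 UMIs the ratios were 0.509 (0.200 to 1.08) and 0.315 (0.0631 to 0.968). Without cells with markers of other types only 0 of 31 and 1 of 9 cells with high Prg4 cycled, too few cells for a comparison.

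**Figure D5:**
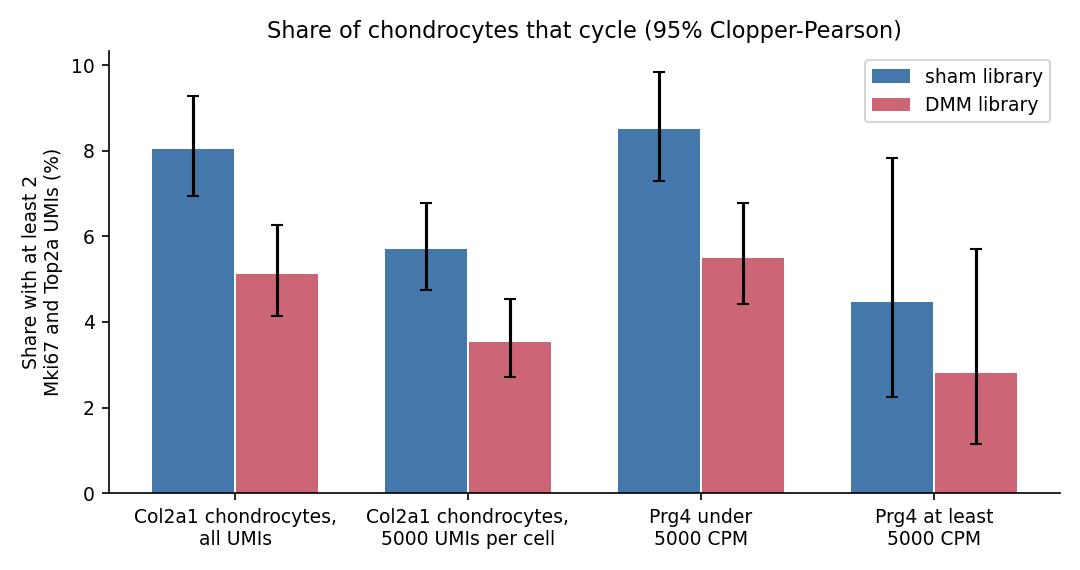
Share of chondrocytes with at least 2 UMIs of Mki67 and Top2a (vertical axis, percent, with 95% Clopper-Pearson intervals) in the sham and DMM libraries, over all Col2a1 chondrocytes, after thinning to 5000 UMIs, and below and above 5000 CPM of Prg4. The DMM bar is the lower in each pair (8.05% against 5.12% over all chondrocytes), and the Prg4-high intervals overlap widely.

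Between the libraries, the transcripts of cycling chondrocytes did not set cycle genes apart from other genes. Of 9002 genes with at least 50 UMIs over both libraries, 242 were over 1.5-fold higher in DMM (2.69%) and 1720 lower (19.1%), with a median log2 ratio of -0.21. Non-cycling chondrocytes showed the same tilt, with 354 of 13437 genes higher (2.63%), 1288 lower (9.59%) and a median of -0.15. Scaling by the median of ratios turned the split in cycling cells from 12.3% higher among the genes past the fold to 46.5% (776 higher and 893 lower), so each ratio is read against the median of -0.21. The ratio was lower for genes with a longer genomic span (Spearman rho -0.442 over 8993 genes in cycling and -0.472 over 13427 in non-cycling cells), a description across genes of the same 2 libraries. Of 161 cycle genes 3 were past 1.5-fold higher and 23 lower, with a median of -0.20, next to the -0.21 of all genes.

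Of the cycle genes past the fold, Hist1h2ap stood at 81.0 CPM in sham and 148 CPM in DMM (log2 ratio 0.87, 0.62 to 1.11), and Cenpw, a centromere protein, at 90.3 and 136 CPM (0.59, 0.34 to 0.83). Stmn1 (0.56, 0.49 to 0.64) and Cdc20 (0.58, 0.30 to 0.85) lay just under the fold. Pola1, a DNA polymerase subunit, stood at 135 CPM in sham and 67.5 CPM in DMM (interval -1.30 to -0.71), Cenpe, a kinetochore motor, at 105 and 55.9 CPM (-0.91), and the linker histone gene Hist1h1e at 617 and 336 CPM (-0.88). Hist1h1e showed the same direction in non-cycling chondrocytes, at 218 and 106 CPM, and in erythroid cells, at 1716 and 700 CPM. Cdkn1a was the inhibitor with the largest difference, at 644 and 958 CPM (0.57, 0.48 to 0.66), just under the fold, and its log2 ratio without markers of other types was 0.47. In non-cycling chondrocytes it stood at 650 and 753 CPM.

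Outside the cycle, many of the largest differences rested on single cells or on markers of other types. Of the 10 highest in DMM, Prtn3, a neutrophil protease, stood at 0.50 CPM in sham and 218 CPM in DMM with 99.7% of its DMM UMIs in 1 cell, and Sfrp2, a Wnt modulator of fibroblasts, at 3.50 and 73.2 CPM with 93.7% in 1 cell. Klf2, a transcription factor, rested on more cells, at 224 CPM (113 cells) and 438 CPM (69 cells), with a log2 ratio of 0.97 (0.83 to 1.11), of 1.17 without markers of other types and of 0.65 in non-cycling chondrocytes. Pdlim4, a cytoskeletal adaptor, stood at 55.8 and 111 CPM (0.99) and Rrad, a small GTPase, at 122 and 228 CPM (0.91). Snorc, a cartilage proteoglycan, stood at 4033 and 6426 CPM (0.67) and had a UMI in 173 of 175 and 90 of 90 cells, with 5040 and 6932 CPM in non-cycling cells.

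Of the 10 lowest in DMM, Acta2, Myh11, Tagln and Tpm2 are genes of contractile cells, and Acta2 stood at 195 CPM in sham and 2.88 CPM in DMM. Csmd1, the second lowest, stood at 66.5 and 1.73 CPM (-5.26), and 1 cell gave 33.5% of its sham UMIs. Its log2 ratio stayed low without markers of other types (-6.57) and was 0.02 in non-cycling chondrocytes. Col1a1, the bone and fibroblast collagen, stood at 1080 and 165 CPM (-2.71), and 1 cell gave 58.1% of its sham UMIs. Without markers of other types its log2 ratio was 0.50, but that limit leaves cells out by Col1a1 itself, so this turn was partly built in. In non-cycling chondrocytes, with no cells left out, its log2 ratio was 1.60. Col1a2, also a gene of the fibroblast list behind that limit, behaved likewise (-2.04, then 0.29). Hspa1a, a heat shock gene, stood at 80.8 and 19.0 CPM (-2.09) and remained lower without those cells (-1.68) and in non-cycling chondrocytes (-0.66). Bmp6 was lower in DMM at 129 and 51.9 CPM (-1.32), and -1.38 without markers of other types.

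Set beside cycling erythroid cells of the same libraries, cycling chondrocytes had lower levels of most cycle genes and higher levels of a few. The globin limit separates both sets by choice, and the erythroid barcodes also held chondrocyte transcripts. Erythroid cells were shallower, with medians of 8230.5 UMIs in sham and 9387 in DMM, against 20796 and 18247.5 in cycling chondrocytes. The limit of 2 UMIs of Mki67 and Top2a thus asked for a higher CPM in erythroid cells. The part of this unlike limit in the ratios was not tested. Of 160 cycle genes with at least 50 UMIs in each library, 141 were lower in cycling chondrocytes in both libraries and 12 higher. Their median log2 ratios were -1.32 in sham and -1.35 in DMM, beside 0.15 and 0.02 over all genes. Past 4-fold in both, 34 of the 160 were lower and 5 higher, against 6.17% and 15.8% of 9407 genes, so the higher ones were a smaller share than over all genes. The 5 were Ccnd1 and Cdk6 of the G1 list and Btg1, Cdkn1a and Cdkn2a of the list of CDK inhibitors and antiproliferative genes. S phase genes summed to 2396 CPM in sham and 2053 CPM in DMM against 9070 and 8667 CPM, and mitotic genes to 6609 and 6335 CPM against 14639 and 12656 CPM.

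The 34 lower genes came from several lists. Among them were Mcm2, Mcm3, Mcm4, Mcm5 and Mcm7 of the helicase, Ccne1 and Ccne2, the E type cyclins that fire S phase, and E2f2, but also mitotic genes such as Aurka, Cenph, Kif18a and Knl1. E2f2 stood at 21.5 CPM in sham and 11.0 CPM in DMM against 308 and 259 CPM, and Ccne1 at 20.3 and 8.07 CPM against 208 and 175 CPM. Of the D type cyclins, Ccnd3 and Ccnd1 went in opposite directions. Ccnd2 differed less, at 1.34-fold (1.04 to 1.72) of the erythroid level in sham and 1.32-fold (0.918 to 1.85) in DMM. Ccnd3 stood at 63.3 and 68.0 CPM against 375 and 424 CPM, 5.93-fold and 6.22-fold lower, and Ccnd1 at 161 and 140 CPM against 14.9 and 6.32 CPM, 10.8-fold and 22.1-fold higher. Cdk6 was 9.40-fold and 12.2-fold higher and Cdkn2a 28.9-fold and 51.7-fold higher than in erythroid cells, where Cdkn2a stood at 1.39 and 0.903 CPM. Acan, a cartilage gene, stood 11.3-fold and 18.1-fold higher, and the chondrocyte markers in erythroid barcodes were uneven, with a summed level of 2876 CPM in sham, a median cell at 215 CPM and 145 of 1280 cells over 1000 CPM. The part of chondrocyte RNA in the erythroid levels of Ccnd1 and Cdk6 was not tested. Cep55, which acts at the last cut between daughter cells, stood at 34.8 and 27.7 CPM in cycling chondrocytes, from 63 and 24 cells. Erythroid cells held 5 UMIs of Cep55 in sham and 0 in DMM, and other cycling cells 3.77 and 2.63 CPM.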

How the data were processed

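Single-cell RNA was measured in 1 sham and 1 DMM library. The authors deposited raw counts of UMIs for each barcode and gene, made with Cell Ranger 7.1.0 per the file headers. In the submitters' processing notes the tools are Cell Ranger at 3.0.1, Seurat, STAR, HTSeq and DESeq2, and the build is mm10. The counts carry no normalisation, and total UMIs were 106799078 in sham and 97346999 in DMM. A bulk table with 6 columns of per-sample values was not used, because its columns match no sample.

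UMIs were summed over cells per set and library and given as CPM of the sum. CPM values have Poisson intervals, ratios exact conditional binomial ones and shares Clopper-Pearson ones, all at 95%. Genes needed 50 UMIs over the sets compared, 38 duplicated symbols were left out, and folds were 1.5 between libraries, 2 between cycling and non-cycling cells and 4 against erythroid cells. Thinning drew 5000 UMIs per cell (seed 1). Named genes were the 10 highest and 10 lowest ratios between libraries (at least 100 UMIs and 50 CPM in 1 library, 1 outside the interval, and a direction that held with median-of-ratios scaling and without the top cell), the 15 highest and 10 lowest between cycling and non-cycling cells (ranked on whichever library had the smaller ratio, 50 CPM), the 4 most abundant members of each list and members past the fold, and Mki67, Top2a, Col2a1, Cenpf, Stmn1, Prg4, Ihh, Pth1r, Fgfr3, Cdkn1a, Cdkn1c, Ccnd1, Ccnd2 and Ccnd3. The text gives some of them. Mitochondrial, ribosomal, haemoglobin and blood marker genes and unnamed gene models were left out of the ranked parts. The members, lists, rules and tests were chosen with earlier results of these data known. Cells without markers of other types had globins under 0.1%, fibroblast and osteoblast lists under 2000 CPM each, and Acta2 with Myh11 and Rgs5 and the neutrophil list under 500 CPM each. That limit, the 1000 CPM limit for zone markers and the bands of mitotic share were chosen after seeing the data. Promoters came from the RefSeq table (GRCm38.p6), where a gene with several windows counted if any held the letters. Scrublet ran in scanpy 1.11.5, intervals in scipy 1.17.1 under Python 3.11.15, and figures in matplotlib 3.10.9. The scripts were tested on simulated data.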

Additional observations from a re-analysis of the deposited data

Results flagged for a closer look

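For 10 genes the ratio of cycling to non-cycling chondrocytes lay on opposite sides of 1 in the 2 libraries, and the difference between the libraries was not tested. Only the ranked genes and the singly named genes outside the rule were searched, not all genes. All 10 had been ranked for their ratio between the libraries in these same cycling cells, so opposite sides were partly built in and are a description only. The contractile genes Acta2, Myh11, Tagln and Tpm2 were higher in cycling cells of sham (6.47-, 5.23-, 4.77- and 3.21-fold) and lower in those of DMM (0.0953-, 0.179-, 0.132- and 0.558-fold). The collagen genes Col1a1 (4.93 in sham and 0.249 in DMM) and Col1a2 (2.66 and 0.287) did the same. So did Spp1, the osteopontin gene (1.68 and 0.137), Mmp13, a collagenase (3.18 and 0.151), and Csmd1 (2.17 and 0.0557). Srgn, a proteoglycan of blood cells, went the other way (0.717 and 1.17). In sham 1 cell held 58.1% of the Col1a1 UMIs and 76.0% of the Mmp13 UMIs of cycling chondrocytes, and in DMM 1 cell held 46.4% of the Srgn UMIs.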

How the results depend on the processing

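The lower share of cycling chondrocytes in DMM kept its direction in each alternative run (ratios from 0.591 to 0.789). Genes higher in DMM numbered 776 of 9002 tested with median-of-ratios scaling and 155 of 9000 without each gene's top cell. They numbered 70 of 4520 with at least 200 UMIs and 2022 of 15522 with at least 1 UMI in each set. Genes lower in DMM numbered 893 with that scaling, 654 with at least 200 UMIs and 3569 with at least 1 UMI, of the same genes. Genes higher in cycling cells numbered 475 of 9800 with Col2a1 of at least 20000 CPM and 367 of 6877 against non-cycling cells matched on UMIs. They numbered 296 of 7967 with at least 200 UMIs and 1649 of 15374 with at least 1 UMI, beside 730 of 11646 as reported. Genes lower numbered 217 of 11600 with at least 4 UMIs of Mki67 and Top2a and 158 of 11263 without Scrublet doublets. They numbered 165 of 11646 with median-of-ratios scaling and 45 of 7967 with at least 200 UMIs, where 57 of 76 cycle genes were higher. The mitotic share was 73.9% in sham and 76.6% in DMM with at least 4 UMIs, and 77.9% in sham and 76.2% in DMM without markers of other types, which turns the order of the libraries and where the Prg4 ratio was 0 in sham and 1.76 (0.0439 to 10.2) in DMM. Runs with another minimum of UMIs leave the ratio of a gene as it was, so their values could not move. The genes ranked between libraries were also picked to keep their direction with median-of-ratios scaling and without the top cell, so those runs could not turn them. For single genes between libraries 296 of 379 values, with such runs counted, moved by less than the counting interval and 8 turned. Those log2 ratios were -0.18 for Cdkn1c, -0.0066 for Pth1r and -0.33 for Srgn with Col2a1 of at least 20000 CPM, 0.50 for Col1a1, 0.29 for Col1a2 and -0.10 for Pth1r without markers of other types, and for Spp1 0.29 with globins under 0.1% and 0.44 without doublets. Col1a1 and Col1a2 are in lists that chose the cells without markers of other types. Between cycling and non-cycling cells 694 of 869, again with the runs at another minimum counted, did not move and 8 turned. In sham these were Ccnd1 (-0.10) and Ccnd2 (0.23) with Col2a1 of at least 20000 CPM, Ccnd1 (-0.050) with median-of-ratios scaling, Ccnd3 (-0.051) with globins under 0.1%, and Ccnd2 (0.42) and Ccnd3 (-0.10) without markers of other types. In DMM they were Ccnd3 (-0.020) without those markers and Chil1 (0.015) with matched UMIs. The causes were not tested, beyond that the number of genes tested changed in many runs. No paired analysis was possible because each group had 1 library. That also means no replicate could be left out, and genes with few UMIs limit what these 265 cells show.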
